A study of Drosophila melanogaster with 2 samples.

Results

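Of the 5354 reproducible binding sites of CG15696 in Drosophila melanogaster embryos, 536 had their summit in intergenic sequence at moderate distance from a gene start. Each of these summits lay outside every annotated gene body, coding or non-coding, and more than 500 but at most 5000 bp from the nearest start site of protein-coding transcription (TSS). They made up 10.01% of all sites (95% Wilson interval 9.24 to 10.8%, which covers counting error only, as do all such intervals here). The embryos were whole, aged 2 to 8 h and of mixed sex, and came from a stable transgenic line in which green fluorescent protein (GFP) is fused to the C-terminus of CG15696. An anti-GFP antibody was used for the precipitation, and the 2 biological replicates, numbered 1 and 3, formed the single group. A transgene was therefore carried by both samples, no sample without it was analysed as a group, and signal from different cell types of the embryo was averaged. The values below describe sites and are not a comparison of conditions. Since sites are not replicates, no test across sites was made.

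CG15696 belongs to the NKL class of homeobox genes, whose products bind short AT-rich words, often built around the letters TAAT, and many of which specify cell fates in the embryo. In Drosophila, the sequence that directs expression in time and space often lies in enhancers a few kilobases from the start site, in introns or between genes, while the promoter itself positions transcription. Intergenic sequence also holds insulators, where proteins such as CTCF, a zinc finger DNA-binding protein, bind and separate neighbouring regulatory domains.

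The 5 strong summits shown here were AT-rich, and only that near E(spl)m2-BFM held any of the homeodomain words searched. Among the 134 strongest sites GC within 50 bp of the summit averaged 31.3%, against 32.8% in all 536, and it was 43.6% at slp2. At zfh2, among the 20 strongest and not printed, GC was 35.6%, above the 30.7% of its flanks 350 bp away. The 101 bases centred on 5 of the strongest summits are printed to show their composition, as RefSeq gives them for Release 6 of the genome (dm6), plus strand, each named by the gene with the nearest TSS. Capitals mark homeodomain words on either strand, that is, TAAT followed by TA, GA, TG, GG or CC. The windows are chr3R:12403076-12403176, chr3L:10769776-10769876, chr2L:3827825-3827925, chr3R:26017934-26018034 and chrX:2124048-2124148.
DNAlig3: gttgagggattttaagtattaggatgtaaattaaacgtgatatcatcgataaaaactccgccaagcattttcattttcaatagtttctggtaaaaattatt
CG43245: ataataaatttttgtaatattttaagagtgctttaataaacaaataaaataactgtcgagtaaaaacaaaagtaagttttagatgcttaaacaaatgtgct
slp1: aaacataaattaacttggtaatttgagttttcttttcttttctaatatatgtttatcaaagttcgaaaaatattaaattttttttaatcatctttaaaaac
E(spl)m2-BFM: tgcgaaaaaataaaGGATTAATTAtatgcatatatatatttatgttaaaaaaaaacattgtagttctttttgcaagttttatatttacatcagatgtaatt
ph-d: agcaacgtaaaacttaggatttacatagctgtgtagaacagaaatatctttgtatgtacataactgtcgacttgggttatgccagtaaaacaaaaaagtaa

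Of the 536 summits, 30 had a core word of the CTCF motif, AGATGGCGC or AGGTGGCGC, within 50 bp. These words were chosen on the same sites, as described below, and also occur at sites of the other classes. Binding of CTCF itself was not among the data used. The 6 windows below, with signals from 276 to 1089, are printed as examples of the word within its sequence, again as 101 bases of the plus strand of dm6. Capitals mark the word on either strand. The windows are chr3L:14111560-14111660, chr3R:28672352-28672452, chr3R:16497503-16497603, chrX:10832538-10832638, chr3L:6264589-6264689 and chr3R:20948130-20948230.
Sox21a: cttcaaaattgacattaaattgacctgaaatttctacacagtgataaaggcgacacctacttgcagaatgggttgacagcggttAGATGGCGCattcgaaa
Sid: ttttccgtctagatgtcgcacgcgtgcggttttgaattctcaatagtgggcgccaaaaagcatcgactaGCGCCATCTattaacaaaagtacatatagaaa
Gr89a: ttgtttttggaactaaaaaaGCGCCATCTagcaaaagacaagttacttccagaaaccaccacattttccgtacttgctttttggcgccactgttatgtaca
sbr: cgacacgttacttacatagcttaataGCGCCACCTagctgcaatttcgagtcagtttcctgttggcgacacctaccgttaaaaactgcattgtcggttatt
Ldh: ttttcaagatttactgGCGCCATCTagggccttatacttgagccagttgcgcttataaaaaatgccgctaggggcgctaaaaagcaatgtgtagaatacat
Atpalpha: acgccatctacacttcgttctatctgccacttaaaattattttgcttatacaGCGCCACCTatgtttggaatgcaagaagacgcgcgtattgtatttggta

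The intergenic sites near a TSS were about as frequent as their sequence space. The rule admits 13.1 Mb of the chromosome arms, or 9.76% of their length, and the sites had a density of 41.0 per Mb there. The density was 21.7 per Mb in intergenic sequence farther from a TSS (526 sites), 146 per Mb within 500 bp of a TSS (2245 promoter sites) and 25.2 per Mb in the rest of gene bodies (2047 sites). Over all arms it was 39.99 per Mb. Among the arms, near-TSS density ran from 31.4 per Mb on X to 51.4 per Mb on the small chromosome 4, which held 5 sites, with 50.8 on 3L, 45.6 on 2L, 39.9 on 3R and 33.8 on 2R.

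Signal, the authors' value per peak on a scale that is not stated, ran from 135 to 4328 with a median of 252 in the near-TSS intergenic sites. The median was 239 in the intergenic sites farther away, 272 in promoter sites, 255 in gene bodies and 259 over all sites. Thus 130 of the 536 (24.3%) were in the upper 25% of the whole list and 11 were in its strongest 100. Signal passed 1000 in 40 of them and fell short of 200 in 206. Distance to the TSS and signal were nearly unrelated across the 536 sites (Spearman's rho 0.03).

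The strongest near-TSS intergenic site lay downstream of CycB, which encodes the mitotic cyclin B, at chr2R:22802730-22803200 (dm6), 3337 bp from the TSS and between the converging genes blw and CycB. Its signal was 4328, with 3136 in replicate 3 and 1208 in replicate 1. Sites of 2 Polycomb genes, of 23 genes in the Polycomb and trithorax list, were among the 20 strongest. Psc, which encodes a subunit of Polycomb repressive complex 1, had a site 4209 bp upstream with a signal of 3191, and 2051 in replicate 3 against 1159 in replicate 1. That summit was also within 500 bp of the TSS of the non-coding gene lncRNA:CR44339, and its called region reached into a gene body. The related ph-d had a site 812 bp upstream, between ph-d and ph-p, with a signal of 1991, and 1337 in replicate 3 against 664.0 in replicate 1. A second summit in the same called region, 1035 bp upstream of ph-d, had a signal of 422.7.

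The adjacent segmentation genes slp1 and slp2 had strong sites too. Between these pair-rule genes, which encode fork head transcription factors, 3 sites lay in 1 interval of 9740 bp. The site nearest to slp1 was 2200 bp from its TSS on the downstream side (signal 3045, with 2024 in replicate 3 and 1040 in replicate 1). A site 4322 bp upstream of slp2 had a signal of 1761, with 1094 in replicate 3 and 669.8 in replicate 1. The windows differed in base composition, with 16.8% GC at the site of slp1 and 43.6% at that of slp2.

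Other strong sites lay near genes of varied function. On chromosome 4, a site 3904 bp upstream of zfh2, a zinc finger homeodomain gene, had a signal of 3041 and the most even replicates of the 20 strongest, 1602 in replicate 3 and 1438 in replicate 1. E(spl)m2-BFM, a Bearded-family gene of the Notch-responsive E(spl) complex, had a site 514 bp upstream with a signal of 2371, just past the inner limit of distance. The site nearest to DNAlig3 (signal 3546, 2311 in replicate 3 and 1245 in replicate 1) lay in a gap of 437 bp between Sol1 and Cyp9f2, so its nearest TSS belonged to neither flanking gene, as was so for 6 of the 536. RasGAP1, which encodes a GTPase-activating protein of Ras, had a site 693 bp upstream with a signal of 2241. The rest of the 20 strongest were nearest to CG13321, CG43245, CG31668, CG43131, CG15429, CG30114, CG5194, CG42693, CG3149, Ppa and l(3)neo38, with signals from 1464 to 3468. All 20 had a peak within 100 bp in both replicates, and 15 lay upstream.

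**Figure D1:**
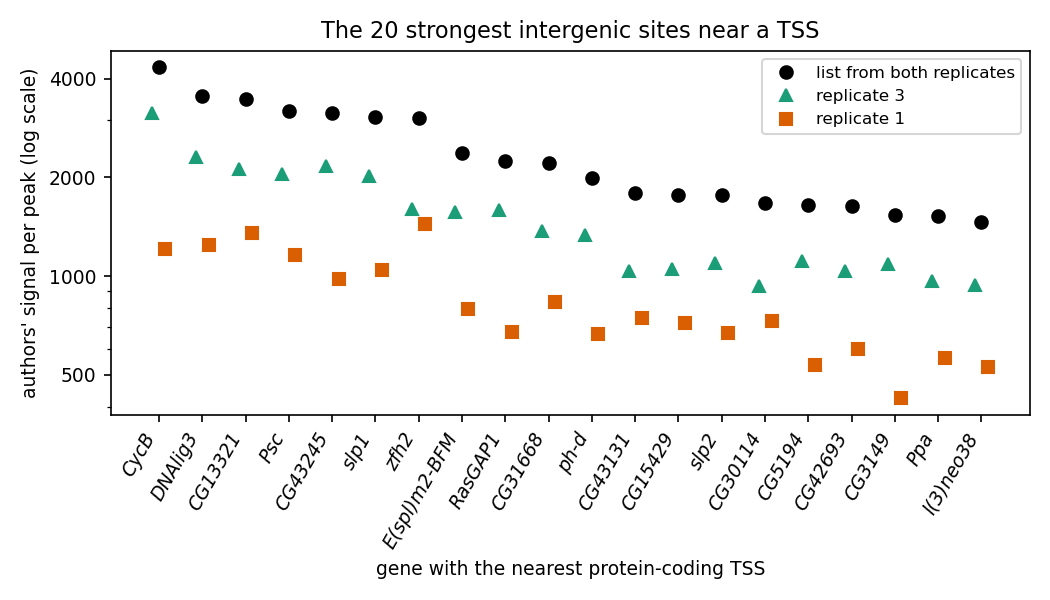
Signal of the 20 strongest intergenic sites near a TSS on a log axis, by nearest gene: circles, the list made from both replicates; triangles, replicate 3; squares, replicate 1. The lists have scales of their own, and in each of the 20 sites replicate 3 is above replicate 1.

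Replicate agreement was close to that of the whole list. The list was thresholded on reproducibility between these same replicates, so a peak in both is in part built into every set drawn from it. A peak within 100 bp of the summit was found in both replicates for 502 of the 536 sites (93.7%, 91.3 to 95.4%), against 94.3% of all 5354 sites. Of the remaining sites, 18 had a peak in replicate 3 alone, 13 in replicate 1 alone and 3 in neither. In 4 bins of 134 sites from the strongest to the weakest, the share with both was 100%, 95.5%, 93.3% and 85.8%. Across the 502 sites the signal of the replicates had a Spearman's rho of 0.71, and 0.72 over all matched sites.

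The log2 ratio of replicate 3 to replicate 1 signal had a median of 0.64 in the near-TSS intergenic sites. It was 0.56 in intergenic sites farther from a TSS, 0.92 in promoter sites, 0.53 in gene bodies and 0.69 over all matched sites, so the near-TSS sites lay between the other non-promoter classes and the promoters. The 5 sites of highest ratio were nearest to CG15615 (3.40), CAH15 (3.36), zfh1 (2.75), wgn (2.50) and Cul2 (2.43). At CG15615 the signal was 525.1 in replicate 3 and 49.8 in replicate 1. zfh1 encodes a zinc finger homeodomain protein of the mesoderm, and its site 4385 bp upstream had 200.5 in replicate 3 and 29.8 in replicate 1. A second site near zfh1, 200 bp away with a signal of 317.9, had 115.8 in replicate 1 and no matched peak in replicate 3. The called regions of both sites overlap (chr3R:30761139-30761542 and chr3R:30761339-30761742), and replicate peaks were matched within 100 bp. Whether the ratio of 2.75 reflects a shift of the summit between replicates was not tested. The 5 of lowest ratio were nearest to CG8517 (-1.66), CG6602 (-1.52), Ncc69 (-1.46), SmD1 (-1.11) and CG33136 (-1.10). At CG8517 the signal was 80.8 in replicate 3 and 255.4 in replicate 1, the reverse order of most sites. This summit was also within 500 bp of the TSS of tRNA:Ile-AAT-1-9, and its called region reached into a gene body.

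Most near-TSS intergenic sites were upstream of the nearest gene. The upstream share was 75.2% (403 sites, 71.4 to 78.7%), and 69.3% of the sequence that the rule admits is itself upstream. Density was 44.5 per Mb upstream and 33.1 per Mb downstream. It was highest close to the start, at 60.6 per Mb upstream (exact Poisson interval 49.9 to 73.0) between 500 and 1000 bp, where downstream sequence had 8 sites and 31.4 per Mb (13.6 to 61.9). From 2000 to 5000 bp, both sides together had 34.5, 34.6 and 34.8 sites per Mb in the 3 steps of 1000 bp. With sites within 1000 bp left out, 70.0% of 417 sites were upstream, and 65.8% of the admitted sequence beyond 1000 bp was. The median distance was 1961 bp.

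**Figure D2:**
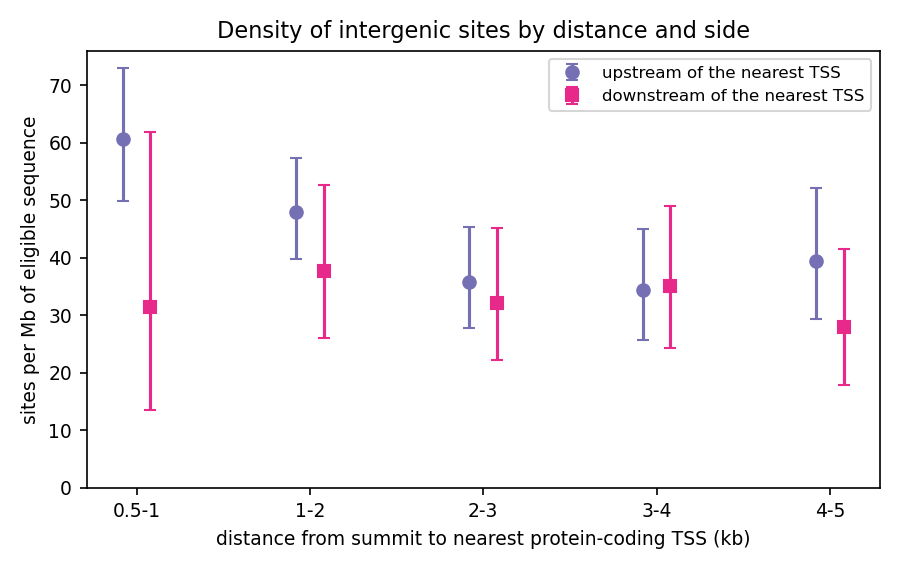
Sites per Mb of admitted sequence (y axis) by distance from the summit to the nearest protein-coding TSS in kb (x axis), upstream (circles) and downstream (squares), with exact 95% Poisson intervals that cover counting error. Upstream density is 60.6 per Mb nearest the start and 34.3 to 39.5 per Mb beyond 2 kb, and the downstream points have wide intervals.

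By the direction of the flanking genes, 213 sites (39.7%, 35.7 to 43.9%) lay between divergently transcribed genes, which make up 31.1% of the admitted sequence. Tandem intervals held 250 (46.6%, against 52.3% of the sequence), and convergent ones 72 (13.4%, against 16.4%). The density was 52.5 per Mb in divergent, 36.6 in tandem and 33.7 in convergent intervals. Divergent sequence is upstream on both sides, so all 213 divergent sites are also among the 403 upstream ones. Of the upstream sites, 187 were tandem. A TSS of a non-coding gene lay within 500 bp of 48 of the summits (8.96%), so these were promoter-proximal to a non-coding transcript. The called region of 53 sites reached into a gene body although the summit did not. Summits of 2 sites lay in annotated transposable elements, which were not counted as gene bodies.

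The 536 sites were nearest to 430 genes, 3.08% of all 13945 protein-coding genes. Of these genes, 355 had 1 such site, 51 had 2, 18 had 3, 5 had 4 and CASK had 5. Sites are counted by summit here, and some summits lie close together, such as 2 near bin, 199 bp apart in 1 called region. CASK encodes a membrane-associated guanylate kinase scaffold, and its sites, 598 to 3805 bp upstream, had signals from 141 to 1079. The divergent interval of 9828 bp between CASK and Gr93a, a gustatory receptor gene, held 7 sites, more than any other. Genes with 4 sites were CG43131, CG4218, Rh5, a rhodopsin gene, meru, and shd, which encodes the cytochrome P450 that makes 20-hydroxyecdysone. Among genes with 3 were slp2, CG42693, tara, Sema5c, Gr93a and Wnt4. In all, 209 sites (39.0%) shared their interval with another of the 536, and 132 (24.6%, against 18.9% of all sites) had another site of any class within 1 kb.

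Genes with a near-TSS intergenic site had a promoter site about as often as all genes. Of the 430 genes, 96 (22.3%, 18.6 to 26.5%) also had a site within 500 bp of their own TSS, and 21.4% of all protein-coding genes did. Of the 24 genes with 3 or more near-TSS intergenic sites, edl, out and CG7484 had one. The edl gene encodes an antagonist of ETS factors, and its 3 intergenic sites, 1580 to 3019 bp upstream, had signals from 300.0 to 355.8.

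Developmental regulators from several tissues were among the nearest genes. In 23 lists of developmental, signalling, cell cycle and chromatin genes, 48 of 330 genes (14.5%) were nearest to at least 1 of the sites, against 3.08% of all protein-coding genes. In the 4 lists of large families (ribosomal proteins of both kinds, chemoreceptors and cuticle proteins), 12 of 407 (2.95%) were. Lists differed within both sets. The 4 ran from 0 of 73 mitochondrial ribosomal protein genes to 6 of 70 cuticle protein genes (8.57%), and the 23 from 0 to 33.3%. Genes flanked by long intergenic sequence have more room for such sites, and the lists were not matched for this. Sites of any class were nearest to 7 of 9 pair-rule genes and 15 of 20 mesoderm and muscle genes. Among pair-rule genes 3 of 9 were nearest to a near-TSS intergenic site, with slp1, slp2 and run. Among mesoderm and muscle genes 6 of 20 were, including bin, a fork head gene of the visceral mesoderm (999.1), the Pax gene Poxm (624.1), srp, a GATA factor of haemocytes and fat body (521.0), and lmd, a zinc finger gene of fusion-competent myoblasts (358.3), with the signal of the strongest site in parentheses. In the list named for NK homeobox genes 5 of 20 were, namely lbe, exex, B-H1, NK7.1 and HGTX, and the strongest of these sites had a signal of 195.

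Signalling genes were represented in several pathways. Of 23 Wnt and planar polarity genes 6 were nearest genes, with the atypical cadherin genes ft (1193) and ds (343.0), the ligand gene Wnt4 (579.5) and the receptor gene fz (494.4) having the strongest sites. In the 29987 bp between Wnt4 and wg there were 4 sites. Of 19 Notch core and E(spl) genes 4 were, with E(spl)m2-BFM, E(spl)malpha-BFM (590.4), the ubiquitin ligase gene mib1 (263.9) and E(spl)m4-BFM (210.0). Of 13 genes of the Dpp pathway, Dad alone was, which encodes an inhibitory Smad protein, with a site 1083 bp upstream of signal 1205. Of 22 receptor tyrosine kinase and Ras genes, aop (643.7) and pnt (376.7) were, which encode an ETS repressor and an ETS activator. The cell cycle list had 3 of 31, CycB, trbl (1262) and Cdk4 (217).

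Among other early regulators, 3 of 15 dorsal ectoderm and amnioserosa genes were nearest genes, Doc2 (1111), peb (476.0) and zen (236). There were 2 of 10 gap and head gap genes (knrl and ems), 2 of 14 segment polarity and Hedgehog genes (wg and inv) and 1 of 10 Hox genes and cofactors (Scr). Of 18 neuroectoderm genes there were 2, the genes D (579.8) and esg (149). The haemocyte list had 3 of 10 (srp, Sr-CI and Hml), the endoderm list 2 of 9 (srp and GATAe), the Hippo and Fat list 3 of 13 (ft, ds and ex), the axon guidance list 2 of 27 (unc-5 and robo2), and the Polycomb and trithorax list 2 of 23 (Psc and ph-d). The glial list had 1 of 6 (pnt) and the JAK/STAT list 1 of 8 (upd2). Sites of any class were nearest to 8 of 10 trachea and epidermis genes and 7 of 15 ecdysone response nuclear receptor genes. They were nearest to 2 of 7 cellularisation genes and 18 of 73 mitochondrial ribosomal protein genes. No gene of these lists was nearest to a near-TSS intergenic site. Of 85 cytoplasmic ribosomal protein genes 2 were (RpLP0 and RpS23), of 179 chemoreceptor genes 4 (Gr89a, Gr93a, Gr93d and Or67c) and of 70 cuticle protein Cpr genes 6.

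Summits were AT-rich relative to the sequence around them. GC within 50 bp of the summit averaged 32.8% ± 9.42 (SD, n = 536 sites), against 42.6% ± 7.89 in flanks 350 bp away and 40.3% ± 9.73 in 129389 tiles of the same width from the admitted sequence. It was 32.0% in intergenic sites farther from a TSS, 31.7% in promoter sites and 33.5% in gene bodies. In 377 sites (70.3%) the summit had less GC than its own flanks, and 43.1% of summits were below 30% GC, as were 16.6% of tiles. GC and signal were weakly related across the sites (Spearman's rho -0.11).

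Homeodomain words were about as frequent at the summits as in sequence of the same base composition. TAATTA, read on both strands, was in 10.6% of the near-TSS summits (57 sites, 8.30 to 13.5%), in 6.81% of flanks, in 10.6% of all sites, and in 12.3% of tiles weighted to the GC of the summits. Any of the 5 words printed in capitals above was in 36.8% of summits and in 37.1% of the weighted tiles. CAGGTA, the word of the early activator Zelda, was in 2.99% (1.85 to 4.79%) against 1.77% of the weighted tiles, and the GATA word AGATAA in 9.70% against 7.79%. CAAACA, of the fork head type, was in 30.2% of the 126 sites that leaned most towards replicate 1 and in 7.14% of the 126 that leaned most towards replicate 3. It had the widest such gap of the 18 words searched and was singled out for it, and the other fork head word, TAAACA, was in 17.5% and 10.3%.

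The words that stood highest over the weighted tiles were of another kind. Among 6-mers in at least 5% of the summits, GCGCCA (8.21% against 2.02%) and AGCGCC (5.41% against 1.36%) came first, and AGATGG and GATGGC were also in the upper ranks. These overlap the core of the CTCF motif. Shares of 12 longer or related words by site class were then looked at, and AGATGGCGC and AGGTGGCGC were kept, in part because they are core words of that motif and in part because their shares differed between classes. Their values are for that reason a description with no test, and another word of the kind, GGGGGCGC, was in 1 summit.

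At least 1 of the 2 words was within 50 bp of 30 of the 536 summits (5.60%, 3.95 to 7.88%). The share was 1.52% in intergenic sites farther from a TSS (8 sites, 0.77 to 2.97%), 1.25% in promoter sites (28) and 1.47% in gene bodies (30). It was 0.09% in the flanks of the near-TSS sites and 0.15% in tiles of admitted sequence. The share was lower in each replicate alone. In the 5354 strongest peaks of replicate 1 alone it was 2.94% (1.79 to 4.79%), against 0.95% in intergenic sites farther away (0.41 to 2.21%). In those of replicate 3 alone it was 4.39% (2.97 to 6.45%), against 1.96% (1.07 to 3.56%). These intervals overlapped in each replicate. Promoter and gene body sites had shares of 0.95% (0.62 to 1.45%) and 1.00% (0.65 to 1.52%) in the list of replicate 1, and of 1.48% (1.06 to 2.06%) and 1.51% (1.06 to 2.14%) in that of replicate 3, below the near-TSS intervals. The words were chosen on the list from both replicates, so the lists of the single replicates are no independent check of them.

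**Figure D3:**
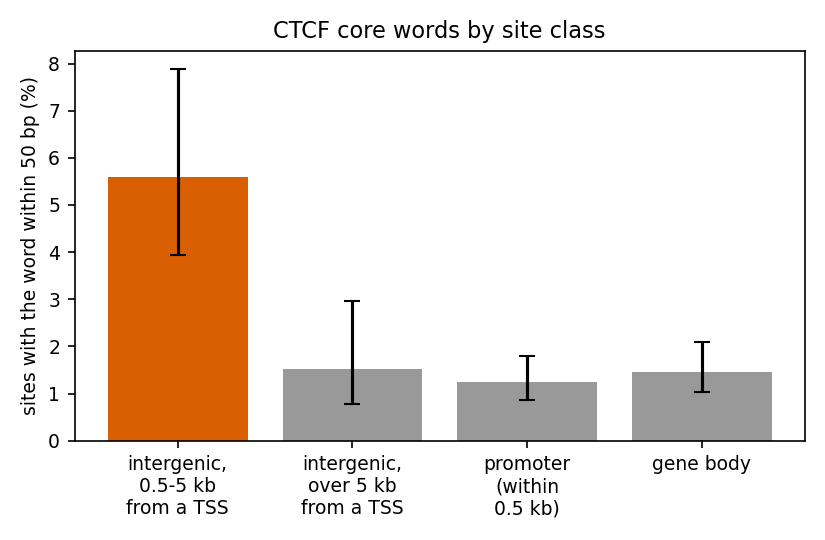
Share of sites (y axis, percent) with AGATGGCGC or AGGTGGCGC within 50 bp of the summit, by site class; bars are shares and whiskers 95% Wilson intervals. The near-TSS intergenic sites stand at 5.60% and the other classes between 1.25% and 1.52%.

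Read from the sequence side, the admitted near-TSS sequence held 213 occurrences of the words, of which 34 (16.0%, 11.7 to 21.5%) had a summit of the reproducible list within 50 bp. The share was 4.60% of 239 occurrences in farther intergenic sequence, 11.3% of 301 near promoters (8.20 to 15.4%) and 3.05% of 1213 in gene bodies. Occurrences were at 16.3 per Mb in the near-TSS sequence, 9.88 in farther intergenic sequence, 19.6 near promoters and 14.9 in gene bodies.

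The 30 sites with a word are described here beside the remaining 506. All 30 had a peak in both replicates, as had 472 of the 506 (93.3%). Their median log2 ratio of replicate 3 to replicate 1 was 1.65, against 0.62 in the others, and 22 of 30 lay above the median over all matched sites. GC at their summits averaged 42.5%, against 32.2%, and 5 of them were below their own flanks, against 372 of the 506 others. The word itself adds GC to the window, and how much of this difference it makes up was not tested. Away from it, mean GC at 150 bp to either side was 28.5% and 29.8%, against 40.9% and 42.3% in the others. Their intergenic intervals had a median of 3799 bp, against 8454 bp, and 2 of the 30 shared an interval with another near-TSS site. Median signal was close, 251 against 252.

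**Figure D4:**
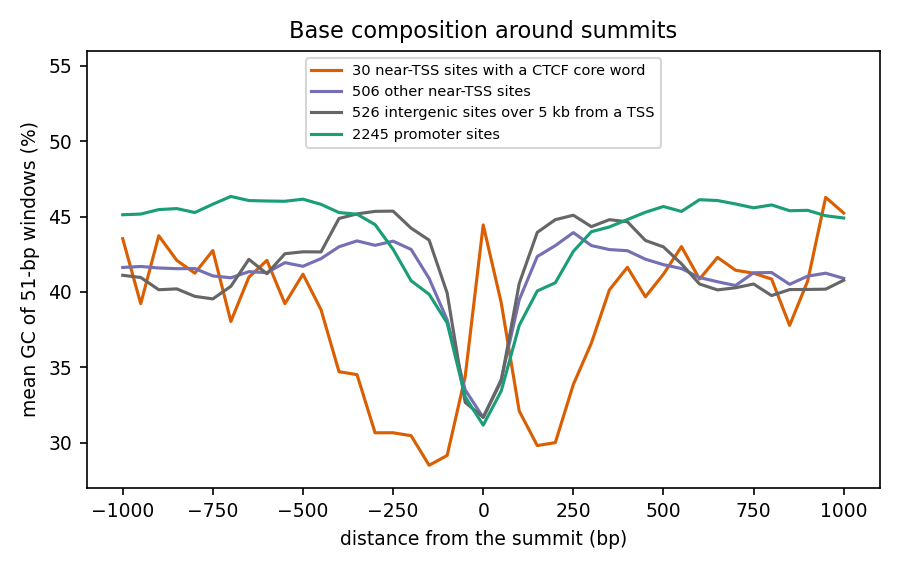
Mean GC (y axis, percent) of 51-bp windows by distance from the summit in bp (x axis) for near-TSS intergenic sites with a CTCF core word, the other near-TSS intergenic sites, intergenic sites farther from a TSS and promoter sites. The 506 sites without the word dip to 31.7% at the summit, and the 30 with it reach 44.4% there between troughs near 150 bp to either side.

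The sites with a word were next to genes of varied function. The strongest, 3492 bp upstream of Sox21a and between the HMG-box genes Sox21a and Sox21b, had a signal of 1089, with 905.5 in replicate 3 and 182.3 in replicate 1. The next were nearest to Sid (signal 778.3, with 570.1 in replicate 3 and 204.1 in replicate 1) and to Gr89a (688.0, with 509.9 in replicate 3 and 171.1 in replicate 1). A site nearest to the mRNA export factor gene sbr, between Imp and sbr, had 438.0 in replicate 3 and 121.6 in replicate 1. Both sites of highest replicate ratio, nearest to CG15615 and CAH15, carried a word. Sites near Ldh, the lactate dehydrogenase gene, Atpalpha, which encodes a subunit of the sodium pump, and upd2, a ligand gene of JAK/STAT signalling, had ratios of 2.14, 1.94 and 2.15. A site 773 bp upstream of jp had 56.2 in replicate 3 and 119.8 in replicate 1, the only site of the 30 besides that of Act88F with a ratio under 0. The centre of the word was a median of 25.5 bp from the summit.

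**Figure D5:**
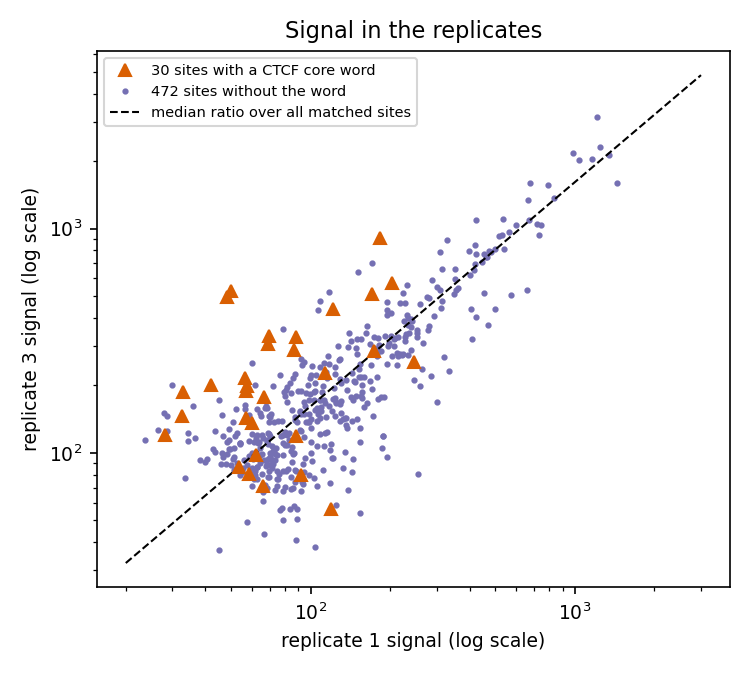
Signal in replicate 3 (y axis) against replicate 1 (x axis), both on log axes, for the 502 near-TSS intergenic sites with a peak in both: triangles, 30 with a CTCF core word; dots, 472 without it. The dashed line is the median ratio over all matched sites, 0.69 on the log2 scale, and 22 of the 30 triangles are above it.

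At the limits of the rule, signals lay on both sides of the median. Just inside 500 bp were sites nearest to CG6602 (503 bp, signal 199.9), nan (504 bp, 157.6) and Boot (510 bp, 458.8), and just outside it were those of Fatp3 (500 bp, 138.6), H2.0 (497 bp, 151.1) and Npc2b (496 bp, 269.9). Just inside 5000 bp were Tollo (5000 bp, 171.7), CG9300 (4994 bp, 636.6) and exex (4978 bp, 180.1), and just outside it tbrd-2 (5077 bp, 150.1), Moca-cyp (5117 bp, 192.5) and CG43195 (5132 bp, 192.8).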

How the data were processed

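ChIP-seq of GFP-tagged CG15696 was available as peak lists on dm6 for 2 replicates. The authors called peaks on each replicate and on both together against 1 control alignment and thresholded them by irreproducible discovery rate (IDR), per the notes deposited with the files. Read depth, the peak caller and the threshold of the IDR step were not given in the sources used here, and no depth interval could be made. A signal value per peak was deposited by the authors on an unstated scale, with a deposited −log10 q value, which was not used. Each replicate list held 30000 peaks.

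Sites were placed by summit with Ensembl release 115 genes, leaving transposable elements out of gene bodies, and RefSeq sequence of the same assembly (Python 3.11.15, numpy 2.4.6, pandas 2.3.3, scipy 1.17.1). The nearest TSS was taken over all protein-coding transcripts. The admitted sequence is every base the same rule admits, cut into 101-bp tiles, weighted to the summits' GC in bins of 2 percentage points, the smallest resting on 18 tiles. Placing, matching and word search were tested on simulated positions. Signal is compared between lists as a ratio to all sites of a list, since lists have their own scales. Replicates are separate biological samples, per the labels. Replicate peaks were matched within 100 bp.

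Members and gene lists were chosen with earlier results of these data known. Named genes are those nearest to the 20 strongest sites, those with 3 or more sites (at most 12), up to 4 per list, the 5 highest and 5 lowest replicate ratios, and sites next to the limits. CAAACA, the CTCF words and the genes beside them, edl, out, CG7484, HGTX and the named intervals were picked with their values in view. Of the listed symbols, 12 matched through synonyms and 2 (Dl and bantam) were not matched to a protein-coding gene. Alternatives changed the list, the distance limits, the gene bodies, the TSS set, the position, the matching distance and the window. Those with transposable elements as gene bodies, RefSeq genes, and all for the CTCF words were chosen after seeing the data.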

Additional observations from a re-analysis of the deposited data

How the results depend on the processing

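Of 105 values recomputed under 12 alternatives, 87 moved by less than the spread used (the 95% Wilson interval for shares, 1.5 times for counts, the SD of the values from both single-replicate lists for the rest) and 18 moved by more. The 2677 strongest sites held 261 near-TSS intergenic sites and 35 listed genes, with 97.7% in both replicates, a GC of 32.0% and a median distance of 1982 bp. With distances over 1000 bp, 70.0% were upstream, the signal ratio to all sites was 1.02 (0.97 in the list as reported), the GC 32.4% and the median distance 2423 bp. Counting protein-coding gene bodies alone gave a median distance of 1998 bp and a GC of 33.1%. A window of 100 bp to either side of the summit, in place of 50 bp, gave a GC of 34.5% and TAATTA in 20.3%. Matching within 50 bp gave 79.5% in both replicates, and within 200 bp 98.1%. With either replicate's list in place of the shared one, the number of sites was 511 to 547, the upstream share 74.0 to 75.9%, the signal ratio 0.94 to 0.99, the median distance 1963 to 1976 bp, the GC 32.8 to 33.1%, the share in both replicates 92.5 to 92.6%, TAATTA 9.79 to 11.3%, the CTCF word share 2.94 to 4.39%, the divergent share 38.2 to 39.1%, the median log2 ratio 0.48 to 0.72 and the listed genes 57 to 65. RefSeq genes gave the same 536, and transposable elements as gene bodies gave 534. The causes of these moves, beyond the construction of each alternative, were not tested. No paired analysis was possible because there is 1 group. The share in both replicates was 93.7% within 100 bp and 98.1% within 200 bp, so some missing peaks depended on the matching distance. For the rest, read depth is unknown, so a site missing from a replicate cannot be told apart from one too shallow to call.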
